A study of Mus musculus with 72 samples.

Results

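The ovary and the liver of F2 daughters sired by IVF-conceived males were compared by RNA-Seq at 12 weeks of age. The comparison held the 5 IVF libraries of the ovary and the 6 IVF libraries of the female liver, chosen by the tissue, sex, generation and conception group in their labels, which were 11 of the 72 libraries of the series. Their sires were F1 males made by IVF from CF-1 eggs and sperm of SJL/B6 males heterozygous for a GFP transgene, cultured as embryos and carried by pseudopregnant CF-1 females. The sires were mated at 12 weeks with wild-type CF-1 females, so the daughters were themselves conceived by mating, were of mixed background and received no treatment. The 4 natural libraries of the ovary and the 5 natural libraries of the liver, from 12-week daughters of males conceived by mating of the same strains, are given beside some results as separate libraries of the same tissues. The sources used here do not give the stage of the oestrous cycle, the hour of collection, or which ovary and liver came from the same daughter.

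The ovary holds oocytes inside follicles. The granulosa and theca cells around them, and after ovulation the corpus luteum, turn cholesterol into oestrogens, androgens and progesterone. Most of the liver is hepatocytes, which secrete the proteins of blood plasma, make glucose and urea, break down amino acids and turn cholesterol into bile acids. Cholesterol is therefore the starting material of a main product of both organs.

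Values are CPM, a gene's counts per 1000000 counts of the library, after scaling by TMM, a method that sets libraries to a common level over most genes. In bulk tissue a lower CPM can mean fewer cells of a type or less RNA per cell, and these cannot be told apart. Total counts were 11489461 to 16553139 in the ovaries and 13815244 to 90441392 in the livers, of which liver 5 (90441392) and liver 6 (77714916) were the deepest. Each mate of a read pair was counted, so the floor set by a count of 0 is taken as 6 counts, or 3 pairs. Over the libraries of a tissue together this is 0.0479 CPM in ovary and 0.0401 CPM in liver. Pearson's r of log2 CPM was taken across 7125 genes, those with a mean of at least 20 CPM over the libraries of both tissues. It was 0.977 to 0.989 between ovaries and 0.952 to 0.989 between livers, and −0.164 to −0.104 between an ovary and a liver. A gene could pass through either tissue alone, and genes low in both were left out. That choice can lower r between tissues, so no conclusion is drawn from its sign. Tissue and count table are the same split of these libraries, so any difference between the tables as made cannot be told apart from tissue.

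Of 15670 genes tested, 10950 (69.9%) were called, meaning a change over 1.5-fold together with an adjusted p under 0.05 (edgeR's quasi-likelihood fit, Benjamini-Hochberg). There were 6295 genes higher in ovary (40.2%) and 4655 higher in liver (29.7%). With library size alone as the scaling, 85.5% of 13367 called genes were higher in ovary, against 57.5% with TMM, and the median log2 fold change of all genes moved from 0.21 to 1.60. Log2 fold changes are of ovary over liver, so that a negative value is higher in liver. Over 8-fold, 2607 genes were higher in ovary (16.6%) and 1392 in liver (8.88%). Of these genes over 8-fold, 398 higher in ovary had no count in any liver, and 178 higher in liver had no count in any ovary. All ovaries lay above all livers for 6100 of the genes tested (38.9%) and below them for 4586 (29.3%), so that the tissues did not overlap for 68.2%.

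The liver put much of its mRNA into few genes. The 10 most abundant genes took 7.91%, 7.36%, 9.14%, 7.72% and 8.01% of the counts in the 5 ovaries, and 22.1%, 24.0% and 24.9% as the lowest, median and highest liver. The ranges did not overlap, with means of 8.03% ± 0.669 (SD, n = 5) and 23.7% ± 0.998 (SD, n = 6; two-sided exact permutation p = 0.00433, which is the smallest this design allows and is also the value adjusted over 4 summary measures). Albumin alone accounted for 9.93% ± 0.888 of liver counts (SD, n = 6). In ovary no gene passed the nuclear noncoding RNA Malat1, at 1.70% ± 0.260 (SD, n = 5), and the first protein-coding nuclear gene was Cyp11a1 at 1.04% ± 0.177. Thinned to the 11489461 counts of the smallest library, 15483 ± 202 genes reached 10 counts in ovary and 12180 ± 55.8 in liver (SD, n = 5 and 6; exact permutation p = 0.00433).

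**Figure D1:**
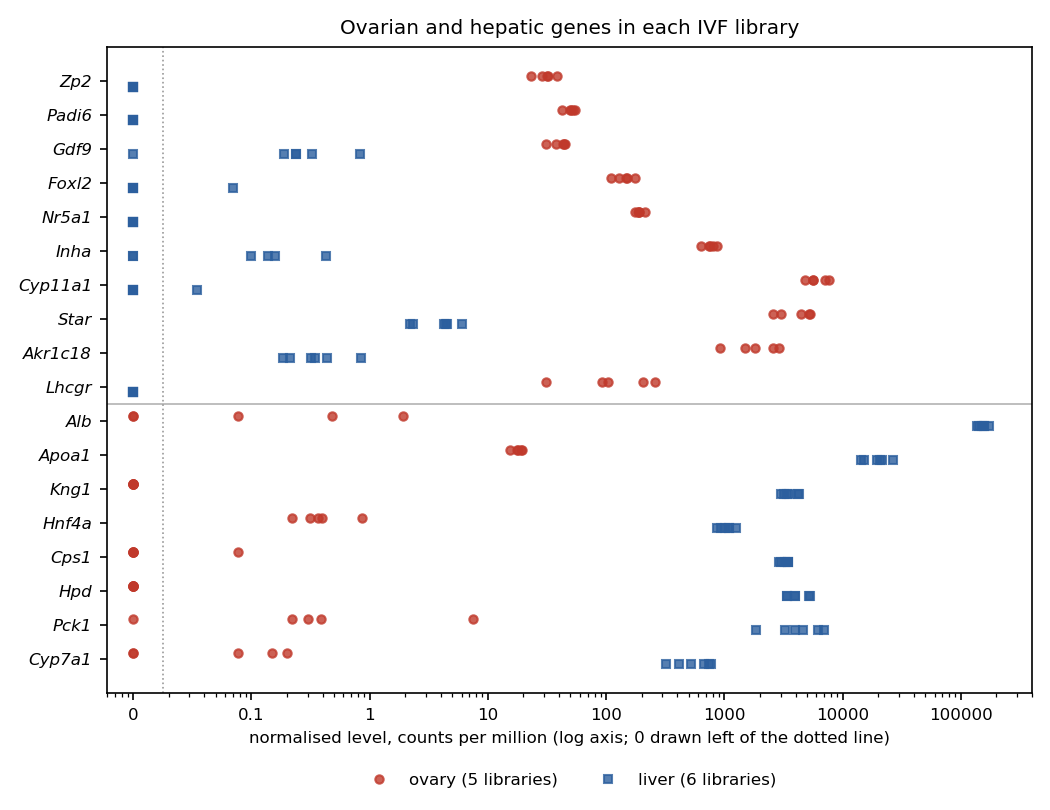
Level of 18 genes in each of the 5 ovary (circles) and 6 liver (squares) IVF libraries, in CPM on a log axis with 0 drawn at the left. Each point is 1 library: the upper 10 genes are higher in every ovary and the lower 8 in every liver, with Alb at 138322 to 173522 CPM in liver and 0 to 1.92 CPM in ovary.

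Oocyte genes were higher in ovary without exception. All 3 genes of the zona pellucida, the glycoprotein coat of the egg, and all 24 tested genes of a list of 27 oocyte factors were called higher in ovary, against 40.2% of all genes tested. The other 3 oocyte factors, Figla, Sohlh1 and Oosp2, had too few counts to be tested, at 0.101 to 0.330, 0.148 to 0.680 and 0.0778 to 0.513 CPM in ovary with no count in liver. Of the 27 factors, 17 had no count in any liver. The median log2 fold change of those tested was 8.97, or 7.48 with the genes at 0 in liver set to their lower bound. A gene with no liver count entered the test through its ovarian counts alone, so for such genes the call adds nothing to the counts themselves.

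Zp2, a sperm-binding coat protein on chromosome 7, was measured at 38.2, 32.3, 28.5, 23.2 and 31.9 CPM in the 5 ovaries and had no count in the 6 livers, at least 769.5-fold higher. Zp1, which links the coat's filaments, stood at 15.2, 14.01, 12.7, 8.83 and 9.40 CPM in ovary with no count in liver, at least 300.4-fold higher. Zp3, the third main coat protein, was found at 25.4, 21.2, 17.04, 13.5 and 18.496 CPM in ovary and with 2 counts in the livers together, both in liver 6, a ratio of 1433 (95% interval 257 to 56611). Its fitted log2 fold change was 10.04, and 11.69 without liver 6. Ovary 4 was the lowest ovary for all 3 zona genes, and no liver reached it. The promoter of Zp3 is shown because E-boxes, sites of the form CANNTG bound by basic helix-loop-helix factors such as that encoded by Figla, are known in zona gene promoters. Its 250 bases before the RefSeq start (GRCm38.p6, chr5:135979855-135980104, plus strand) held 3 such matches, in capitals, at −181, −134 and −55.
Zp3: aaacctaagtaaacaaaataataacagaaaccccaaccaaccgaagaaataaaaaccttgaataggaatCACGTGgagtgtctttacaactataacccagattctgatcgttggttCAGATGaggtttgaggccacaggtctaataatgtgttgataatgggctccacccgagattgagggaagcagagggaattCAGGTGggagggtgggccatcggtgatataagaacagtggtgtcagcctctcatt
A match of these letters is common. CANNTG reads the same on both strands and can overlap the other motifs named here. It was present in the 300-base window of 75.0% of 27025 genes with a promoter entry and of 68.6% of the 11657 matched genes tested. The sets over 8-fold were drawn from the genes tested. It was present in 72.2% of the 1823 matched genes over 8-fold higher in ovary and in 77.6% of the 1024 over 8-fold higher in liver.

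Among other oocyte genes, Padi6, a component of the cytoplasmic lattices that store maternal proteins, was at 55.1, 52.7, 50.5, 42.4 and 50.03 CPM in ovary and 0 in every liver, at least 1252-fold higher. Nlrp5, a maternal-effect gene of the subcortical complex of the egg, was at 18.3, 16.8, 15.9, 14.7 and 16.8 CPM and 0, at least 411-fold higher. Nlrp14, another gene of that family, was at 52.0, 44.5, 40.3, 31.8 and 34.3 CPM and 0, at least 1014-fold higher. Ovary 4 was again the lowest for all of these. Gdf9, the growth factor through which the oocyte acts on granulosa cells, had 44.0, 44.7, 43.2, 31.1 and 37.6 CPM in ovary and 0, 0.239 and 0.837 CPM as the lowest, median and highest liver, a log2 fold change of 7.21 ± 0.32 (SE, adjusted p = 7.12e-11). Bmp15, its partner ligand, had 19.6, 21.0, 17.9, 13.6 and 17.99 CPM in ovary and 2 counts over the livers, both in liver 6, a ratio of 1351 (95% interval 242 to 53344). Its fitted log2 fold change was 9.95, and 11.60 without liver 6. The smallest differences of the list were those of Kit, the receptor for stem cell factor, at 3.00 ± 0.24 (SE, adjusted p = 4.31e-08), and Tle6, a subunit of the subcortical complex, at 3.92 ± 0.21 (SE, adjusted p = 5.07e-10), both of which had counts in every liver.

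Genes of granulosa cells were likewise called higher in ovary, in 18 of 18 cases, beside 40.2% of all genes tested. Their median log2 fold change was 7.29 against 0.21 for all genes tested. Of these genes, 5 had no count in any liver and so entered the test through ovary alone. Inha, the alpha subunit of the hormone inhibin, was at 638, 873, 795, 747 and 761 CPM in ovary and 0, 0.119 and 0.424 CPM in the lowest, median and highest liver, a log2 fold change of 12.49 ± 0.32 (SE, adjusted p = 6.20e-13). Foxl2, the transcription factor that maintains granulosa cell identity, was at 127, 111, 151, 176 and 147 CPM and had 4 counts over the livers, all in liver 5, a ratio of 5339 (95% interval 1478 to 44086). Its fitted log2 fold change was 12.15, and 14.55 without liver 5. Gja1, the connexin of the junctions between granulosa cells, was the most abundant of the list at 1034, 1534, 1051, 909.8 and 1242 CPM in ovary against 4.65, 5.34 and 11.1 CPM in liver. Amh, anti-Müllerian hormone from growing follicles, was at 119.8, 121, 119, 103 and 79.6 CPM against 0.0693, 0.199 and 0.654 CPM, a log2 fold change of 9.10 ± 0.38 (SE, adjusted p = 9.92e-11). Cyp19a1, the aromatase that makes oestrogens, was at 31.8, 77.04, 33.9, 22.5 and 30.9 CPM with no count in liver, at least 979-fold higher. Fshr, the receptor for follicle-stimulating hormone, was at 12.8, 23.4, 18.4, 14.3 and 11.6 CPM with no count in liver, at least 402-fold higher. Ovary 2 was the highest ovary for Cyp19a1, Fshr, Gja1 and the activin-binding protein Fst (56.5 to 135 CPM). The smallest difference of the list was that of Gata4, a transcription factor that liver endothelium and stellate cells also use, at 105, 118, 81.7, 113 and 93.2 CPM in ovary and 19.6, 21.7 and 30.9 CPM in liver, a log2 fold change of 2.14 ± 0.14 (SE, adjusted p = 4.70e-09).

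All 11 tested genes of a list of 13 gonadal transcription factors were called higher in ovary, beside 40.2% of all genes tested. Nr5a1, the nuclear receptor that switches on steroidogenic genes, varied little between ovaries, at 215, 186, 189, 189 and 177 CPM, and had no count in any liver, at least 4775-fold higher. Runx1, which is expressed in the granulosa lineage, was at 22.9, 27.1, 31.2, 25.5 and 26.5 CPM against 0.555, 0.612 and 1.27 CPM, a log2 fold change of 5.20 ± 0.21 (SE, adjusted p = 2.65e-11). Nr2f2, a factor of stromal and theca progenitors, differed least, with a log2 fold change of 0.74 ± 0.09 (SE, adjusted p = 2.74e-06).

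Of 18 ligands of the TGF-beta family, 11 were called higher in ovary, beside 40.2% of all genes tested, and 5 higher in liver, near the 29.7% of all genes tested. The same shares stand beside the receptors and antagonists below. The activin subunit genes Inhba and Inhbb were higher in ovary, at 132 to 280.2 and 115 to 321 CPM against 9.25 to 21.7 and 1.11 to 7.85 CPM in liver, with log2 fold changes of 3.78 and 6.11. The related subunit genes Inhbc and Inhbe were higher in liver. Inhbc stood at 97.4, 138 and 185 CPM in the lowest, median and highest liver and had 1 count in the 5 ovaries. Inhbe stood at 79.4, 129 and 243 CPM in liver and had 2 counts in the ovaries, both in ovary 1. Gdf2, which encodes BMP9, a circulating ligand for endothelium, was at 22.7, 29.5 and 31.3 CPM in liver with 4 counts in the ovaries, all in ovary 4. Receptors of the family were called higher in ovary in 8 of 11 tested cases and in liver in 1. Bmpr1b had 36.2, 62.7, 45.1, 34.2 and 45.7 CPM in ovary and no count in liver, at least 1118-fold higher, and Amhr2, the receptor for anti-Müllerian hormone, had 73.3, 68.9, 65.9, 67.8 and 69.4 CPM against 0, 0.556 and 1.27 CPM. Of 7 antagonists, 6 were higher in ovary, Fst with a log2 fold change of 4.02 ± 0.57 (SE, adjusted p = 3.97e-05) and 4.68 without liver 1, and Chrd was higher in liver (−1.29 ± 0.19 SE, adjusted p = 2.40e-05). With library size alone as the scaling, Chrd was not called and lay on the other side of 0, at 0.090.

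Steroidogenic, theca and luteal genes held 4 of the 5 most abundant nuclear genes of the ovary, Cyp11a1, Hsd3b1, Star and Sfrp4. Of 17 genes, 13 were called higher in ovary and 2 higher in liver, beside 40.2% and 29.7% of all genes tested. Their median log2 fold change was 3.74. Cyp11a1, the mitochondrial enzyme that cuts the side chain of cholesterol in the first step of steroid synthesis, was at 7042, 5645, 7709.8, 5629.9 and 4853 CPM in the 5 ovaries and had 2 counts over the 6 livers, both in liver 5, a ratio of 462513 (95% interval 83012 to 18268300.0). Its fitted log2 fold change was 18.38, and 19.98 without liver 5. Star, which carries cholesterol into mitochondria, was at 5196, 3021, 5291, 4433 and 2581 CPM in ovary and 2.22, 4.37 and 6.10 CPM in the lowest, median and highest liver, a log2 fold change of 10.04 ± 0.37 (SE, adjusted p = 1.36e-11). Hsd3b1, which turns pregnenolone into progesterone, was at 5144, 4049, 4821, 3012 and 5281 CPM and 1.14, 3.05 and 22.5 CPM, a log2 fold change of 9.42 ± 0.91 (SE, adjusted p = 1.07e-06). No liver came near the lowest ovary for any of these genes. Without liver 4, its highest liver, the value of Hsd3b1 was 10.23, and the gene belongs to a family of close copies, between which the counting of reads is uncertain.

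The promoter of Cyp11a1 is shown because Nr5a1 binds the half-site AGGTCA, and both genes were absent or nearly absent from liver. The second of its 2 entries (GRCm38.p6, chr9:58014702-58014951, plus strand) held 1 match in the 250 bases before the RefSeq start, at −28, in capitals.
Cyp11a1: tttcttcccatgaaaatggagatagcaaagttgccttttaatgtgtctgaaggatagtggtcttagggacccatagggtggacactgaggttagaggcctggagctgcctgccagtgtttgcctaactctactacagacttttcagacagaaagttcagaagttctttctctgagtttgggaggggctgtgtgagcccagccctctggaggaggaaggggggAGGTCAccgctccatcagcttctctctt
Many other nuclear receptors bind the same letters. AGGTCA, searched on both strands, neither contains nor lies within another motif named here. It was present in 18.1% of all genes with a promoter entry and 16% of those tested. The share was 16.2% of those over 8-fold higher in ovary and 26.3% of those over 8-fold higher in liver.

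Luteal genes were abundant in all ovaries. Akr1c18, which inactivates progesterone, was at 2919, 2595, 1824, 1492 and 925 CPM in ovary and 0.186, 0.332 and 0.840 CPM in liver, a log2 fold change of 12.04 ± 0.46 (SE, adjusted p = 2.32e-11). Ptgfr, the receptor for the prostaglandin that ends luteal life, was at 1007, 1029, 902, 809 and 751 CPM against 0, 0.120 and 0.654 CPM, a log2 fold change of 11.74 ± 0.44 (SE, adjusted p = 2.16e-11). Sfrp4, a secreted inhibitor of Wnt signalling, was at 4104, 4573, 4716, 2444 and 3687 CPM and had 6 counts in the livers together, a ratio of 97479 (95% interval 33356 to 472686). Its fitted log2 fold change was 16.44, and 17.04 without liver 5. Lhcgr, the receptor for luteinising hormone, varied most among these, at 92.9, 103, 30.9, 259 and 206 CPM with no count in liver, at least 3455-fold higher, with ovary 3 the lowest and ovaries 4 and 5 the highest. Scarb1, through which steroidogenic cells and hepatocytes take up cholesterol from high-density lipoprotein, was high in both tissues, at 2097, 1863, 2106, 1621 and 1834 CPM in ovary and 149.7, 275 and 413 CPM in liver, a log2 fold change of 2.81 ± 0.22 (SE, adjusted p = 2.92e-08). Fdx1 and Fdxr, which pass electrons to Cyp11a1, had log2 fold changes of 3.28 and 3.74.

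The other 4 steroid genes did not follow that pattern. Por, which supplies electrons to microsomal P450 enzymes, was higher in liver, at 135, 102, 106, 110.1 and 88.2 CPM in ovary against 1167, 1374 and 2048 CPM in liver, a log2 fold change of −3.76 ± 0.19 (SE, adjusted p = 2.64e-10). Srd5a1, a steroid 5-alpha reductase, was also higher in liver, with a log2 fold change of −1.72 ± 0.25 (SE, adjusted p = 2.48e-05). With library size alone as the scaling Srd5a1 was not called, at −0.33. Cyp17a1, the theca enzyme that makes androgens, was not called: it was at 439, 388, 226, 51.8 and 92.4 CPM in ovary and 28.3, 473, 86.1, 408, 53.0 and 160.5 CPM in the 6 livers, and both tissues spread so widely that they overlapped (0.25 ± 0.77 SE, adjusted p = 0.77). Tspo, a mitochondrial membrane protein once assigned to cholesterol import, was at 49.2, 38.8, 65.1, 49.1 and 46.2 CPM in ovary and 25.4, 47.3 and 59.7 CPM in liver (0.13 ± 0.19 SE, adjusted p = 0.534), and was higher in the natural ovaries than in the natural livers, with a log2 fold change of 2.55 ± 0.22 (SE, adjusted p = 3.57e-07). The difference between these contrasts was not tested.

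Stromal genes were higher in ovary in 12 of 13 tested cases of 14, beside 40.2% of all genes tested, with a median log2 fold change of 4.63. Col1a1, a chain of type I collagen, was at 538, 497, 463, 636 and 596 CPM in ovary and 1.74, 9.94 and 22.8 CPM in liver, a log2 fold change of 5.66 ± 0.48 (SE, adjusted p = 2.24e-07). Acta2, the actin of smooth muscle, was at 299, 226, 245, 266 and 264 CPM against 0.792, 1.64 and 17.5 CPM, a log2 fold change of 5.75 that became 7.21 without liver 5, the liver with most of its counts. Dcn, a proteoglycan of the extracellular matrix, overlapped between tissues at 217, 172, 84.3, 155 and 129 CPM and 112, 146 and 163 CPM. The surface epithelium list was mixed, with 5 genes higher in ovary, 2 higher in liver and 3 not called. Among all genes tested, 40.2% were higher in ovary and 29.7% in liver. Lgr5, a stem cell marker of that epithelium, was higher in ovary at 3.05 ± 0.19 (SE, adjusted p = 2.79e-09), whereas the keratin genes Krt8 and Krt18, which hepatocytes also express, were higher in liver at −3.15 and −5.24. Outside the lists, the abundant genes over 8-fold higher in ovary were Malat1 (3.67 ± 0.22 SE, adjusted p = 1.89e-09), Sparc, a matrix glycoprotein (4.23 ± 0.17 SE, adjusted p = 2.30e-11), and Gpx3, a secreted glutathione peroxidase (8.10 ± 0.42 SE, adjusted p = 7.63e-10). Gpx3 was at 1075, 1106, 3062, 946 and 903 CPM, with ovary 3 far above the others. The smallest p-values in that direction, beside Cyp11a1 and Sfrp4, were those of Prss35, Efhd1 and Abcb1b. Prss35, a secreted protease-like protein of the ovary, was at 229, 334, 310.3, 223 and 323 CPM with 2 counts in liver. Efhd1, a mitochondrial calcium-binding protein, was at 231 to 347 CPM against 0.212 to 0.654 CPM. Abcb1b, a drug-export pump, was at 558 to 1000.4 CPM against 0.744 to 1.27 CPM.

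**Figure D2:**
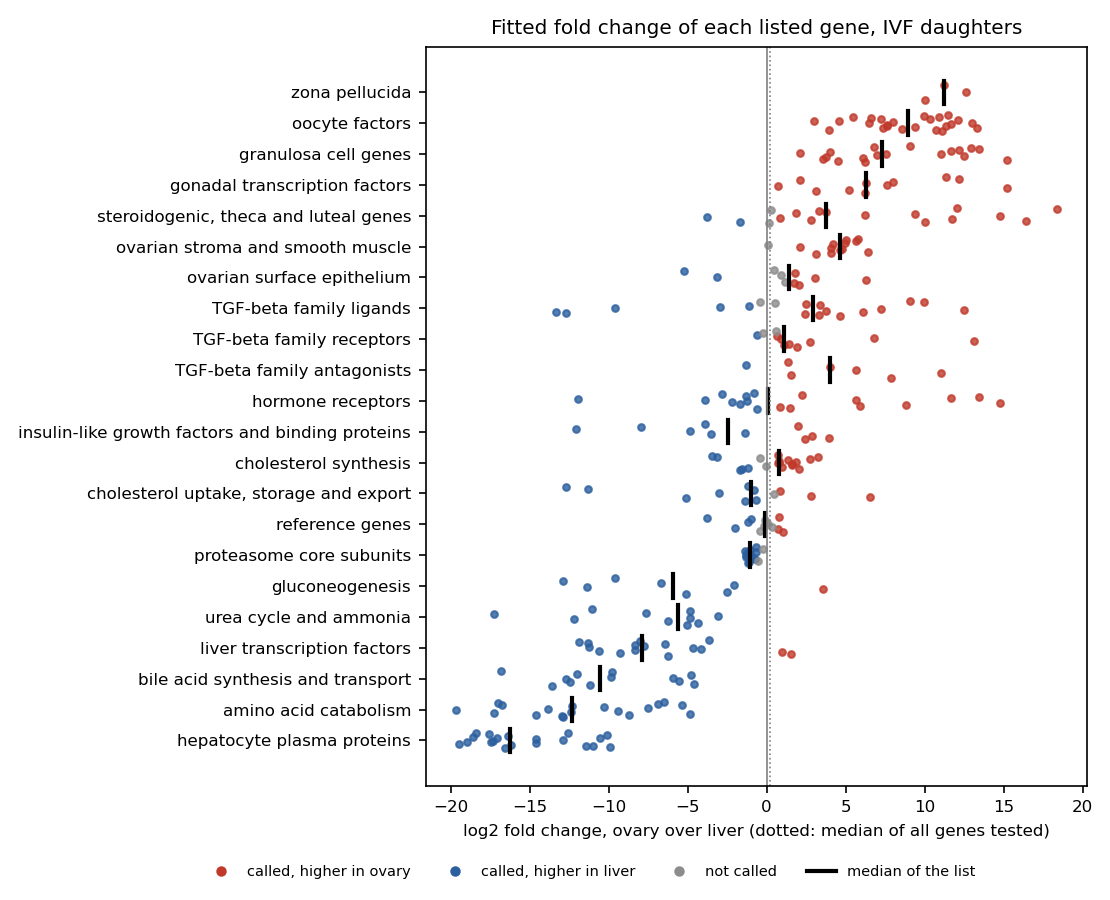
Fitted log2 fold change, ovary over liver, of each tested gene of 22 lists in the IVF libraries, coloured by call, with the median of each list as a black bar and the median of all genes (0.21) as a dotted line. Lists run from the zona pellucida (median 11.23) to hepatocyte plasma proteins (median −16.28), and those in the middle hold genes on both sides of 0. Fitted values of genes with no count in a tissue depend on the prior count of the fit, which was edgeR's default.

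All 20 genes of a list of hepatocyte plasma proteins were called higher in liver, against 29.7% of all genes tested, with a median log2 fold change of −16.28. Alb, the main protein of plasma, was at 173522, 156954, 143341, 157534, 151896 and 138322 CPM in the 6 livers and 0.480, 0, 0, 0.0778 and 1.92 CPM in the 5 ovaries. The log2 fold change was −18.37 ± 1.13 (SE, adjusted p = 3.01e-09), and −20.07 without ovary 5, the ovary with most of the Alb counts. Ttr, the carrier of thyroid hormone and retinol, was at 4819, 5136 and 5966 CPM in the lowest, median and highest liver and had counts in ovary 5 alone. Kng1, the precursor of bradykinin, was at 3024, 3471 and 4269.6 CPM in liver and had no count in any ovary, at least 75305-fold higher in liver. Apoa1, the main protein of high-density lipoprotein, was at 17.8, 19.0, 19.6, 15.5 and 17.9 CPM in ovary and 14359.6, 20117 and 26920.1 CPM in liver, a log2 fold change of −10.10 ± 0.30 (SE, adjusted p = 1.78e-12). Of the 8 most abundant genes over 8-fold higher in liver, Apoe, which directs lipoproteins to their receptors, had the highest level in ovary, 491, 511, 472, 506 and 741 CPM against 40658, 45528 and 61880.5 CPM in liver, a log2 fold change of −6.51 ± 0.28 (SE, adjusted p = 5.16e-11). C3, the central complement protein, was at 240.2, 36.1, 88.8, 82.7 and 39.3 CPM in ovary, where ovary 1 was the highest, and 19744, 28623 and 35326 CPM in liver, a log2 fold change of −8.20 ± 0.60 (SE, adjusted p = 1.72e-08). Without ovary 1 this was −8.86. The others beside Alb and Apoa1 were the iron carrier Trf (−9.90 ± 0.34 SE, adjusted p = 6.04e-12), the fetuin gene Ahsg (−12.60 ± 0.55 SE, adjusted p = 7.12e-11), the protease inhibitor Serpina3k, which has close copies, and the selenium carrier Sepp1 (−5.78 ± 0.23 SE, adjusted p = 2.27e-11). The smallest p-values in this direction included those of Mat1a, Fbp1, Serpinc1 (antithrombin, −11.43 ± 0.24 SE, adjusted p = 4.02e-13) and Vtn (vitronectin, −11.44 ± 0.25 SE, adjusted p = 4.02e-13).

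Of 16 liver transcription factors, 14 were higher in liver, beside 29.7% of all genes tested, and 2 higher in ovary, beside 40.2%. Hnf4a, a nuclear receptor that sustains the hepatocyte programme, was at 0.400, 0.367, 0.222, 0.311 and 0.859 CPM in ovary and 872, 1054 and 1263 CPM in liver, a log2 fold change of −11.28 ± 0.31 (SE, adjusted p = 9.75e-13). Foxa1, a pioneer factor, was at 17.6, 19.3 and 20.3 CPM in liver with no count in ovary, at least 400.2-fold higher. Cebpa, which also acts in luteinising granulosa cells, differed least of those higher in liver, at 67.4, 63.8, 82.3, 60.9 and 98.2 CPM against 486, 942 and 1240.2 CPM, a log2 fold change of −3.64 ± 0.26 (SE, adjusted p = 1.15e-08). Onecut2 and Nr5a2 were the exceptions. Onecut2 was at 578, 473, 535, 416 and 422 CPM in ovary and 138, 161 and 201 CPM in liver (1.53 ± 0.13 SE, adjusted p = 8.34e-08). Nr5a2, the close relative of Nr5a1 that both hepatocytes and granulosa cells express, was at 143, 239, 181, 171 and 160.3 CPM and 82.4, 92.6 and 111 CPM (0.95 ± 0.13 SE, adjusted p = 1.05e-05), and no liver reached the lowest ovary. In the natural libraries neither gene was called, at 0.27 and 0.46.

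The promoter of Alb is shown because Alb was the most abundant gene of the liver. Its 250 bases before the RefSeq start (GRCm38.p6, chr5:90460620-90460869, plus strand) held CCAAT, the letters of the CCAAT box, at −56 and on the other strand at −15, in capitals.
Alb: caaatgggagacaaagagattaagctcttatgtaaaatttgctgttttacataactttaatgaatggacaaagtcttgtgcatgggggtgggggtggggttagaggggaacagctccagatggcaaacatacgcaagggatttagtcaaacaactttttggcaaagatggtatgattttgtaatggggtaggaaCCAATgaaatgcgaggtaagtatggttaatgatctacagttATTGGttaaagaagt
CCAAT, searched on both strands, was present in 41.1% of all genes with a promoter entry and 42.4% of those tested. The share was 41.3% of those over 8-fold higher in ovary and 46.3% of those over 8-fold higher in liver. CAAAGTCCA, letters that Hnf4a binds, was present in 0.555%, 0.669%, 0.384% and 2.73% of the same sets, in that order. Neither motif contains or lies within another motif named here.

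Metabolic genes of the hepatocyte were higher in liver almost throughout, beside 29.7% of all genes tested. The counts were 10 of 10 for the urea cycle and ammonia handling, 18 of 18 for amino acid catabolism, 12 of 12 for bile acid synthesis and transport, and 7 of 8 for gluconeogenesis. Cps1, which fixes ammonia in the urea cycle, was at 2889, 3360.1 and 3483 CPM in liver with 2 counts in the ovaries, both in ovary 4. Glul, which makes glutamine from ammonia in many tissues, differed least in that list, at 254, 300.3, 141, 149.7 and 129 CPM in ovary against 1363, 1639.9 and 2079 CPM, a log2 fold change of −3.10 ± 0.25 (SE, adjusted p = 3.78e-08). Hpd, of tyrosine breakdown, was at 3371, 3934 and 5345 CPM in liver and 0 in every ovary, at least 87499-fold higher. Mat1a, which makes S-adenosylmethionine, had the smallest p-value of the genes higher in liver whose tissues did not overlap, at 1.04, 0.990, 0.963, 1.01 and 1.11 CPM in ovary and 5059, 5483 and 6295 CPM in liver (−12.41 ± 0.22 SE, adjusted p = 2.64e-13). Fbp1, of gluconeogenesis, was also even between libraries, at 1.01 to 1.79 CPM and 967 to 1077 CPM (−9.60 ± 0.20 SE, adjusted p = 4.02e-13).

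In bile acid synthesis, Cyp7a1, the rate-limiting enzyme, was at 319.6, 602 and 777 CPM in the lowest, median and highest liver and 0 to 0.202 CPM in ovary, a log2 fold change of −12.72 ± 0.51 (SE, adjusted p = 4.93e-11). Abcb11, the pump that exports bile salts, was at 407, 596 and 771 CPM in liver and 0 in every ovary, at least 12234-fold higher. Pck1, which starts gluconeogenesis in the cytosol, was at 6932, 3265, 4663, 6257, 1867 and 3977 CPM in the 6 livers and 7.56, 0.220, 0, 0.389 and 0.303 CPM in the ovaries, a log2 fold change of −11.37 ± 1.33 (SE, adjusted p = 7.03e-06) that became −14.27 without ovary 1. The exception among these lists was Pck2, the mitochondrial form of the same enzyme, higher in ovary at 33.7, 46.3, 34.5, 51.8 and 46.4 CPM against 1.70, 3.41 and 5.67 CPM (3.57 ± 0.23 SE, adjusted p = 4.47e-09).

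Of 19 enzymes of cholesterol synthesis, 12 were called higher in ovary, beside 40.2% of all genes tested, 5 higher in liver, beside 29.7%, and 2 were not called. With library size alone as the scaling, 14 and 2 were called, and the median log2 fold change was 2.155 in place of 0.77. Their summed level overlapped, at 2453 to 2897 CPM in ovary and 2255 to 3279 CPM in liver. Dhcr7, of the last steps, was at 690.0, 595, 661, 443 and 586 CPM in ovary and 49.3, 57.5 and 95.6 CPM in liver, the largest difference toward ovary (3.22 ± 0.18 SE, adjusted p = 9.77e-10). Fdps, which makes farnesyl diphosphate, and Sqle, squalene epoxidase, were higher in ovary at 2.74 ± 0.22 (SE, adjusted p = 5.75e-08) and 2.03 ± 0.31 (SE, adjusted p = 4.77e-05). Ebp and Sc5d were higher in liver at −3.13 and −1.57, the latter not called with library size alone as the scaling (−0.19).

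Several calls toward ovary were small. Cyp51 (0.69 ± 0.26 SE, adjusted p = 0.0233) was not called without liver 1, 2, 5 or 6 or without ovary 2, with values of 0.57, 0.54, 0.52, 0.60 and 0.55. Lss (0.69 ± 0.15 SE, adjusted p = 7.50e-04) was not called without liver 1 (0.47) or liver 2 (0.53), and Hmgcs1 (0.77 ± 0.24 SE, adjusted p = 0.00928) was not called without livers 5 and 6 together (0.50), an alternative chosen after seeing the data. Hsd17b7, which serves both cholesterol synthesis and the making of oestradiol in the corpus luteum, was at 42.6, 60.1, 92.2, 437 and 446 CPM in ovary and 33.8, 60.1 and 82.1 CPM in liver. Ovaries 4 and 5 stood far above every other library, ovaries 1 and 2 lay within the range of the livers and ovary 3 just above it. Its log2 fold change of 1.83 ± 0.61 (SE, adjusted p = 0.0152) was not called without ovary 4 (1.40) or ovary 5 (1.38), or without livers 5 and 6 (1.56).

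In the natural libraries, whose livers had low and uneven mapping rates by the study's own account, 3 synthesis enzymes were called higher in ovary and 12 higher in liver. Among all genes tested there, 42.6% were higher in ovary and 29.5% in liver. In all, 6 enzymes were called in opposite directions in the IVF and the natural contrasts. Over all genes, 33 of 6295 higher in IVF ovary and 52 of 4655 higher in IVF liver had the opposite call in naturals. Cyp51 was at 41.1, 50.9 and 60.1 CPM as the lowest, median and highest natural ovary and 129, 211 and 477 CPM in the natural livers (−2.55 ± 0.38 SE, adjusted p = 7.08e-05). Idi1, which makes an isoprenoid building block, was higher in ovary in the IVF libraries (0.81 ± 0.24 SE, adjusted p = 0.00723) and higher in liver in the naturals (−2.02 ± 0.27 SE, adjusted p = 1.86e-05). Hmgcs1, the first committed step, gave −1.48 ± 0.22 (SE, adjusted p = 5.41e-05) in the naturals. Dhcr7, Fdps and Ebp were called in the same direction in both. The difference between the contrasts was not tested, and the median of all genes was 0.21 in one and 0.40 in the other.

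**Figure D3:**
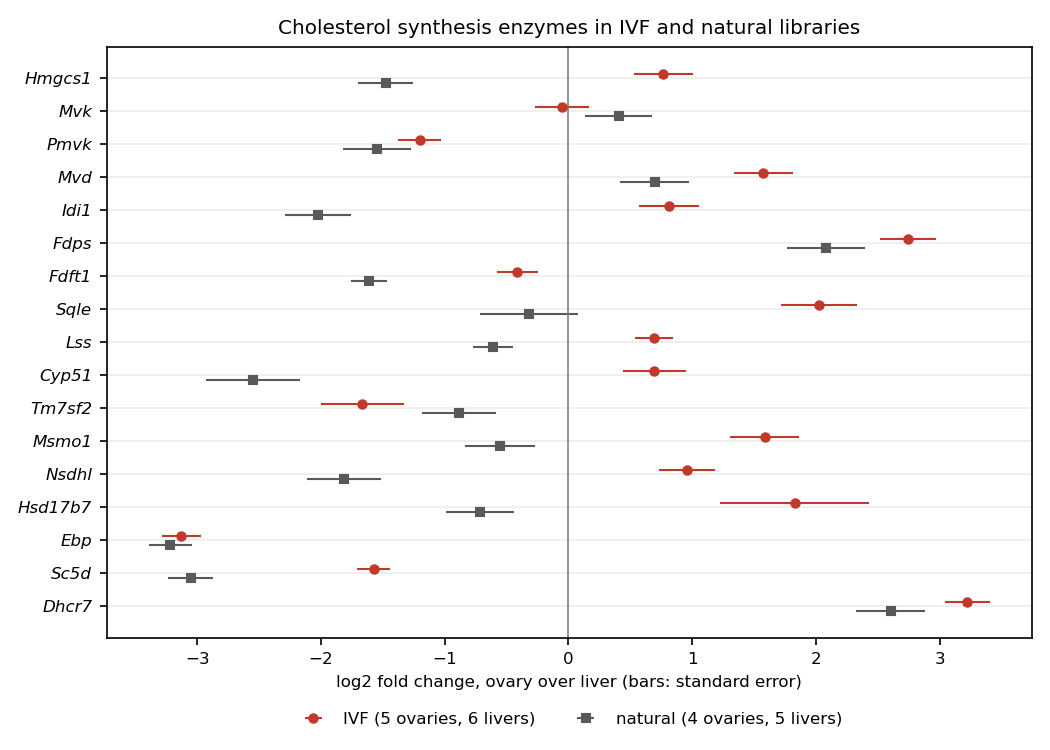
Log2 fold change, ovary over liver, with its standard error for 17 of the 19 cholesterol synthesis enzymes in the IVF (circles) and natural (squares) libraries. Dhcr7 and Fdps lie to the right and Ebp and Sc5d to the left in both, whereas Hmgcs1, Idi1, Cyp51, Lss, Nsdhl and Hsd17b7, the 6 called in both with opposite signs, lie to the right in IVF and to the left in natural libraries.

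Of 12 genes for the uptake, storage and export of cholesterol, 3 were called higher in ovary and 8 higher in liver. Among all genes tested, 40.2% and 29.7% were. With library size alone as the scaling, 6 of these 12 genes were called higher in ovary and 4 in liver. Soat1, which esterifies cholesterol for storage in steroidogenic cells, was at 437, 569, 534, 486 and 571 CPM in ovary and 4.28, 5.42 and 8.07 CPM in liver (6.54 ± 0.18 SE, adjusted p = 9.81e-13). Soat2, the hepatocyte and gut form, was at 1.00, 1.10, 1.11, 2.84 and 1.67 CPM and 40.7, 53.4 and 63.0 CPM (−5.08 ± 0.27 SE, adjusted p = 7.25e-10). Abcg5 and Abcg8, which together pump sterols into bile, were at 117, 137 and 177 and 165, 246 and 369 CPM in the lowest, median and highest liver and had 2 and 12 counts over the ovaries. Abcg5 and Abcg8 lie head to head on chromosome 17, and the 109 bases between their annotated starts (GRCm38.p6, plus strand, chr17:84683012-84683120) are shown because both genes are read outward from them. They held AGATAA, a site for GATA factors, on the other strand at bases 17 and 47, in capitals.
Abcg5-Abcg8: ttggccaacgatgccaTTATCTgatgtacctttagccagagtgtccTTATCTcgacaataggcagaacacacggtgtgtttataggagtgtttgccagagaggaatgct
AGATAA, searched on both strands, neither contains nor lies within another motif named here. It was present in 12.7% of all genes with a promoter entry and 8.36% of those tested. The share was 8.78% of those over 8-fold higher in ovary and 14.6% of those over 8-fold higher in liver. Npc1, which releases cholesterol from lysosomes, was higher in liver (−3.00 ± 0.14 SE, adjusted p = 1.74e-10).

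Of 18 hormone receptors, 9 were called higher in ovary, beside 40.2% of all genes tested, and 9 higher in liver, beside 29.7%, or 11 and 3 with library size alone as the scaling. The gonadal receptors Fshr, Lhcgr and Esr2 had no count in liver, and Esr2, oestrogen receptor beta, was at 44.1, 72.8, 54.9, 50.4 and 55.2 CPM in ovary, at least 1385-fold higher. Oxtr, the oxytocin receptor, was at 44.0, 42.3, 25.8, 74.9 and 59.9 CPM against 0, 0.0173 and 0.240 CPM (8.81 ± 0.48 SE, adjusted p = 1.68e-09, and 9.94 without liver 6). Igf1r, the receptor for insulin-like growth factor 1, was at 294, 363, 211, 192 and 207 CPM in ovary and 4.09, 5.17 and 6.26 CPM in liver (5.63 ± 0.20 SE, adjusted p = 6.61e-12). The ligand gene Igf1 ran the other way, at 59.3, 60.1, 111, 77.1 and 82.6 CPM and 887, 1125 and 1446 CPM (−3.88 ± 0.22 SE, adjusted p = 9.77e-10). Ghr, the growth hormone receptor, and Gcgr, the glucagon receptor, were higher in liver at −3.90 ± 0.22 (SE, adjusted p = 9.85e-10) and −11.96 ± 0.38 (SE, adjusted p = 3.60e-12). Without ovary 4 the value of Gcgr was −12.87. Prlr, the prolactin receptor, was high in both tissues, at 1029.6, 1034, 1144, 975 and 994 CPM in ovary and 503, 574 and 654 CPM in liver (0.84 ± 0.12 SE, adjusted p = 1.33e-05). Its ranges did not overlap, but in the natural libraries it was not called (−0.49 ± 0.22 SE, adjusted p = 0.0633). Esr1, oestrogen receptor alpha, and Insr, the insulin receptor, were higher in liver at −1.30 ± 0.14 (SE, adjusted p = 1.00e-06) and −1.26 ± 0.13 (SE, adjusted p = 6.36e-07), and both changed sign with library size alone as the scaling, to 0.086 and 0.12. Of 10 genes for insulin-like growth factors and their binding proteins, 4 were higher in ovary and 6 in liver, or 4 and 5 with library size alone, beside the same shares of all genes. Igfbp5 and Igfbp7 were higher in ovary (2.88 and 2.43), whereas Igfbp1, Igfbp2, Igfbp4 and Igfals, which circulate in plasma, were higher in liver, at −12.06, −4.85, −3.52 and −7.94.

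Many steps of metabolism are served by related genes with separate tissue use, and 22 such pairs were compared per kilobase of exon. The first gene was called higher in ovary and the second higher in liver in 16 pairs. Of all genes tested, 40.2% were higher in ovary and 29.7% in liver. The pairs were picked for separate tissue use, so this count does not test it. Of the 21 pairs with a length for both genes, the more abundant member switched between the tissues in every library in 18. Pkm and Pklr, of pyruvate kinase, are an example. Pkm was at 88.4 ± 5.10 CPM per kb in ovary and 3.27 ± 0.761 in liver (SD, n = 5 and 6), and Pklr at 0.0801 ± 0.0975 in ovary and 87.7 ± 19.9 in liver. Of the glycogen phosphorylases, Pygb was at 15.1 ± 2.53 CPM per kb in ovary and 1.26 ± 0.215 in liver, and Pygl at 1.51 ± 0.287 and 98.6 ± 11.4. In the methionine adenosyltransferases the switch came from a single member. Mat2a was not called, at 26.3 ± 3.76 CPM per kb in ovary and 22.7 ± 3.35 in liver, whereas Mat1a was at 0.295 ± 0.0164 and 1609 ± 149. The glucose transporters behaved likewise, with Slc2a1 at 4.08 ± 0.419 and 4.71 ± 0.955 CPM per kb and Slc2a2 at 0.0213 ± 0.0292 and 52.0 ± 7.21. With library size alone as the scaling both Mat2a and Slc2a1 were called higher in ovary, at 1.60 and 1.17.

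Exceptions were few. Nr5a1 and Nr5a2 were both higher in ovary, and Nr5a1 had no count in liver, where Nr5a2 was at 15.7 ± 1.72 CPM per kb against 30.3 ± 6.20 in ovary. Per kb, Acacb, which makes malonyl-CoA at mitochondria, exceeded Acaca, the form of fatty acid synthesis, in every library of both tissues. The values were 2.44 ± 0.188 and 1.40 ± 0.153 CPM per kb in ovary and 16.0 ± 3.08 and 4.25 ± 0.600 in liver. The exon unions used were 9.632 kb for Acacb and 17.074 kb for Acaca, and the order in ovary rests on these lengths. Pfkl exceeded Pfkp in every library as well. Arg2 exceeded Arg1 in 4 of 5 ovaries.

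**Figure D4:**
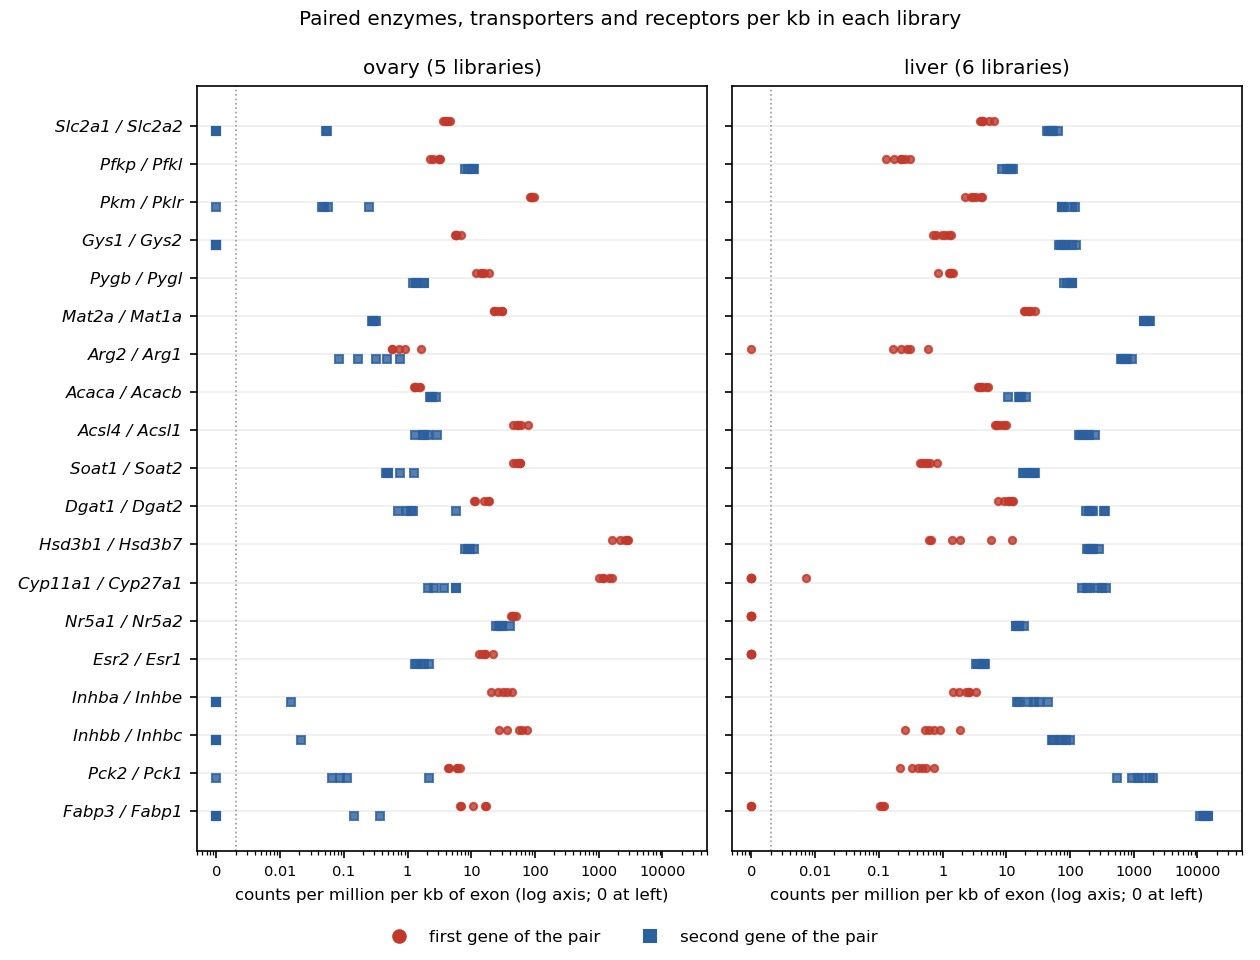
Level per kilobase of exon of 19 gene pairs in the 5 ovary (left) and 6 liver (right) libraries, 1 point per library on a log axis with 0 drawn at the left. Circles, the first gene of a pair, lie to the right of squares in ovary and to the left in liver for 16 of them. For Pfkp and Pfkl and for Acaca and Acacb the squares lie to the right in both, and for Arg2 and Arg1 the points overlap in ovary.

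Some genes stood at the same level in both tissues. Of 624 genes with at least 100 CPM in each, the smallest log2 fold changes belonged to genes of splicing, of lipid metabolism and of the ribosome, among others, such as Sf1, a splicing factor, at 145, 146, 126, 142 and 138 CPM in ovary and 109.8, 145 and 148 CPM in liver (−0.00 ± 0.10 SE, adjusted p = 0.994). Such genes mark the level at which TMM sets the tissues equal: with library size alone as the scaling, Sf1 was called higher in ovary at 1.38. Of 13 common reference genes, 6 were not called, 3 were higher in ovary, beside 40.2% of all genes tested, and 4 higher in liver, beside 29.7%. Hprt (−0.05 ± 0.09 SE, adjusted p = 0.639), Ppia (−0.16 ± 0.11 SE, adjusted p = 0.177) and Gusb (−0.13 ± 0.11 SE, adjusted p = 0.26) were among those not called, and with library size alone they were called higher in ovary, at 1.33, 1.22 and 1.25. Actb, cytoplasmic actin, was higher in ovary (0.79 ± 0.12 SE, adjusted p = 2.94e-05). Gapdh, of glycolysis, was higher in liver (−1.01 ± 0.16 SE, adjusted p = 5.88e-05) and changed sign with library size alone, to 0.38. B2m, the light chain of class I histocompatibility molecules, was higher in liver at −3.78 ± 0.18 (SE, adjusted p = 1.63e-10). All 14 core subunits of the proteasome, the protease that clears tagged proteins, were below 0, of which 12 were called higher in liver, with a median log2 fold change of −1.05. With library size alone that median was above 0, at 0.33, and 5 subunits were called higher in ovary and none in liver.

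The libraries of a tissue also differed among themselves. The biological coefficient of variation was 0.208 in ovary and 0.265 in liver. The SD of log2 CPM of a gene had a median of 0.144 over 6450 ovary genes and 0.221 over 6585 liver genes with a mean of at least 20 CPM. The most variable ovary genes included Comp, a cartilage matrix protein, at 34.2, 67.4, 9.71, 2.45 and 1.92 CPM, Sstr1, a somatostatin receptor, at 7.24, 21.7, 4.48, 79.9 and 4.95 CPM, Bace2, a protease, at 8.76, 7.11, 8.63, 41.8 and 101 CPM, and Zbtb16, a progesterone-responsive transcription factor, at 45.0, 53.7, 8.82, 6.53 and 4.45 CPM. Comp and Zbtb16 were highest in ovaries 1 and 2, and Bace2 and Hsd17b7 were highest in ovaries 4 and 5. Akr1c18 and Cyp17a1 were also highest in ovaries 1 and 2. A list of 12 ovulation and cycle response genes had 9 tested, all called higher in ovary, beside 40.2% of all genes tested. Their median log2 fold change was 7.91 (5.88 with genes at 0 in liver set to their lower bound). Of the list's 3 genes that were not tested, Ptgs2 was at 0.480, 0.513, 0.370, 0.156 and 0.303 CPM in ovary and Areg at 0.160, 0.733, 0.222, 0.233 and 0.101 CPM. The stage of the cycle was not given, and its part in these differences was not tested. In liver, the most variable genes were Mup15, Mup11, Ceacam2 and C1s2, with the pseudogene H2-T-ps and Mir692-2, most of which have close copies, so their counts are uncertain. Mup15, a major urinary protein that carries pheromones, ranged over 0 to 1070.5 CPM in liver, with 0 in liver 1, and had no count in ovary.

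Of 12 genes of the hepatic clock and of feeding, 9 were higher in liver and 1, Per1, higher in ovary (1.20 ± 0.48 SE, adjusted p = 0.0375). Among all genes tested, 29.7% were higher in liver and 40.2% in ovary. With library size alone as the scaling, 5 of these 12 genes were higher in liver and 3 in ovary. The call of Per1 was lost without liver 2 (0.91), 3 (0.87), 4 (0.93) or 5 (1.21) and without ovary 2 (1.09), 3 (1.20) or 4 (1.20). These genes differed between livers, and for Dbp and Ciart along with depth. Dbp, a clock output factor, was at 19.5, 90.5, 109, 106, 278 and 332 CPM in livers 1 to 6, and Ciart, a repressor of the clock, at 1.96, 2.60, 1.58, 4.03, 32.0 and 36.2 CPM, with livers 5 and 6, the deepest libraries, highest for both. G6pc, which releases glucose, was at 1587, 183, 585, 589, 49.3 and 164 CPM, and Igfbp1, which rises in fasting, at 376, 43.7, 131, 325, 10.2 and 70.4 CPM. Liver 1 was highest and liver 5 lowest for both. The ovary against liver call of Dbp (−1.91 ± 0.64 SE, adjusted p = 0.0161) was lost without livers 5 and 6 (−1.01). That of Ciart (−2.35 ± 0.86 SE, adjusted p = 0.025) was lost without liver 5 (−2.02), liver 6 (−1.90), ovary 1 (−2.22), ovary 2 (−2.33) or ovary 3 (−2.30), and without livers 5 and 6 it was 0.032. The hour of collection and the last meal are not given, and their part was not tested.

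**Figure D5:**
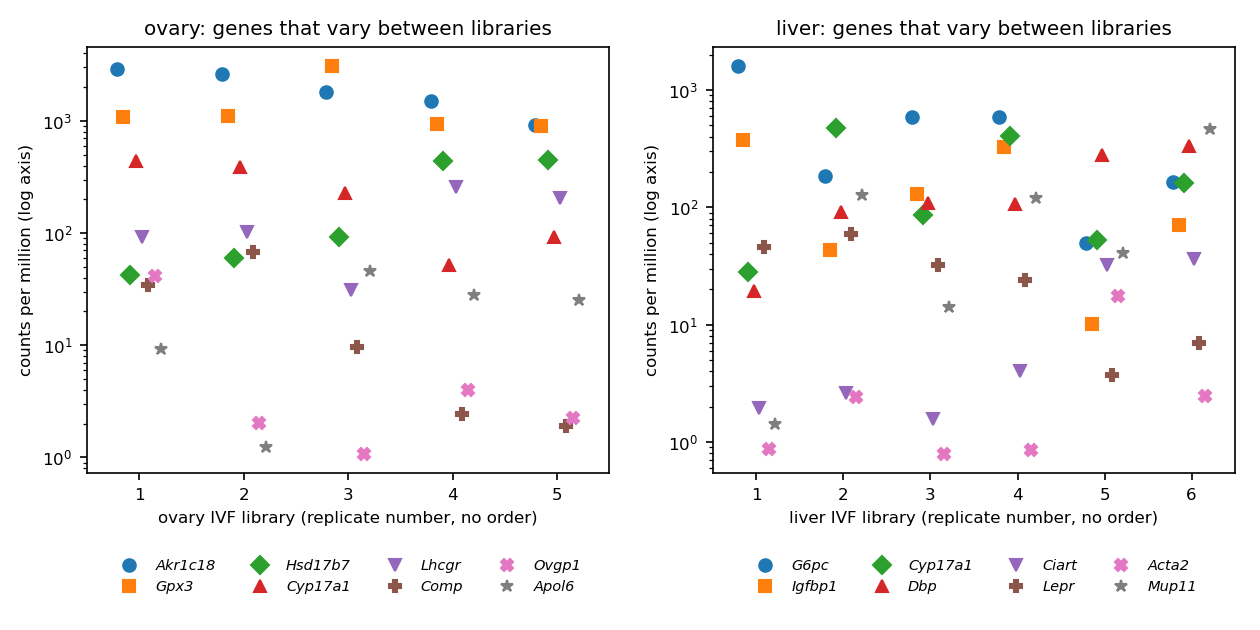
Level of 8 genes in each ovary library (left) and 8 genes in each liver library (right) in CPM on a log axis, 1 point per gene and library, with replicate numbers that have no order and symbols set side by side. Hsd17b7 is at 437 and 446 CPM in ovaries 4 and 5 and at most 92.2 CPM in the others, and Ciart is at 32.0 and 36.2 CPM in livers 5 and 6 and at most 4.03 CPM in the others.

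Markers of other cell types were followed in both tissues. The 6 Kupffer cell genes were all called higher in liver, beside 29.7% of all genes tested. Their summed level was 195 to 411 CPM against 1.85 to 3.64 CPM in ovary. Clec4f, which defines these cells, was 0 in every ovary (at least 3222-fold higher in liver), so it entered the test through liver alone. Of the sinusoidal and stellate genes, 4 of 5 sinusoidal endothelial genes and 4 of 4 stellate cell genes were higher in liver, beside 29.7% of all genes. Cholangiocyte genes were higher in ovary in 3 of 6 cases, beside 40.2% of all genes tested, and in liver in none. This count was 6 with library size alone as the scaling and 1 with at least 10 counts in every library. Of the 7 adipocyte genes, Lep had no count in either tissue and Adipoq was at 2.72, 0.0733, 0, 0.778 and 0 CPM in the ovaries, whereas of the 3 tested the lipid droplet genes Plin1 and Plin4, which steroidogenic cells also use, were higher in ovary (9.64 and 7.01) and Cidec higher in liver (−2.83, a call lost without ovary 2, 3 or 4, and −6.58 without ovary 1). Without liver 5 the value of Plin1 was 11.24. Cfd, a fat cell protease, was at 50.5, 1.17, 0.370, 3.23 and 0.303 CPM. Ovgp1, a secretory product of the oviduct, was at 41.4, 2.02, 1.07, 3.97 and 2.22 CPM. Ovary 1 was highest for Adipoq, Cfd and Ovgp1, while Foxj1, of the ciliated cells of the oviduct, was highest in ovaries 1 and 4 at 4.24, 0.293, 0.148, 5.29 and 0.910 CPM. Ovgp1 was called higher in ovary (4.83 ± 1.09 SE, adjusted p = 0.00141) and stood at 2.61 without ovary 1, still called. Exocrine pancreas genes were seen in liver 1: Pnlip was at 7.41 CPM and Ctrb1 at 12.2 CPM there and both at 0 in the other 5 livers. Of the 6 pancreas genes, Cela2a was called, higher in liver (−2.85, and −3.51 without ovary 2), and of the 4 oviduct genes Cldn3, a tight junction protein, was called higher in liver (−7.37). Erythroid genes were called higher in liver in 4 of 4 tested cases, with summed levels of 263 to 645 CPM against 12.7 to 102 CPM. Lymphocyte genes were in 1 of 3, near the 29.7% of all genes tested. Without ovary 1 and liver 1, a choice made after seeing the data, 11086 genes were called in place of 10950.

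The natural libraries gave the same measure in other daughters. There 11689 of 16219 genes (72.1%) were called, 6912 higher in ovary (42.6%) and 4777 higher in liver (29.5%). Genes called higher in ovary in both contrasts numbered 5305, which was 84.3% of those called in IVF and 76.8% of those called in naturals. For genes higher in liver the number was 3625, or 77.9% and 75.9%. Opposite calls were few, at 33 and 52 genes. Over 8-fold in the natural libraries were 3136 genes higher in ovary (19.3%) and 1387 higher in liver (8.55%), together 27.9%. Over 8-fold, 2268 ovary genes and 1180 liver genes were called in both, and none in opposite directions. These contrasts share no library.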

How the data were processed

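RNA-Seq counts of F2 daughters at 12 weeks were used. The authors extracted RNA with RNeasy columns, made stranded mRNA libraries (KAPA), trimmed reads with Trimmomatic 0.32, aligned them to mm10 with STAR 2.3.0e and counted them per gene with featureCounts 1.5.0, per the labels and the submitters' processing notes. The deposited values are whole, unnormalized counts for 35976 gene symbols in each table, one table per tissue. Both mates of a pair were counted.

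The tables were joined by symbol. Genes were filtered with filterByExpr, scaled by TMM and tested with edgeR 4.0.16 in R 4.3.3. The test was a robust quasi-likelihood F-test, two-sided, with edgeR's default prior count and Benjamini-Hochberg over all genes tested. A prior count of 2 was used only for the SD of log2 CPM. Each SE was derived from the test, as the size of the log2 fold change divided by the square root of the F statistic. Calls needed a change over 1.5-fold at an adjusted p under 0.05, with 8-fold as a stricter limit. DESeq2 1.42.0, other scalings, filters, halved or thinned counts, a replicate block and each library left out were alternatives. Leaving out livers 5 and 6, or ovary 1 and liver 1, was added after seeing the data. On simulated counts of 14982 genes with the library sizes of this contrast, 200 genes were changed. Recovered were 62% of changes of 1.5-fold and 100% of those of 2-, 4- and 8-fold, and 6 unchanged genes were called. Here a call needed an adjusted p under 0.05 without a fold limit. The simulation used ovary means for both tissues and less variation between libraries than was fitted, and changed only well-counted genes. It therefore does not give the recovery of the calls reported above. Summary measures were tested by exact permutation of libraries. Totals were 11489461 to 90441392 counts. Intervals and floors cover counting error only.

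Named genes were members of 33 lists (346 genes) and 22 pairs, the 8 most abundant genes over 8-fold higher in each tissue, the 5 with the smallest p whose groups did not overlap, the genes of smallest change among those with at least 100 CPM in both tissues, and the 6 most variable in each tissue with at least 20 CPM. The lists and the comparison were chosen with earlier results of these data known. The promoter shared by Abcg5 and Abcg8 was chosen after their values were seen. Some genes that this rule names are not reported here. Gene lengths are exon unions of GENCODE (GRCm38), used in place of a planned RefSeq transcript length, and promoter sequences are from RefSeq (GRCm38.p6). The labels do not say that libraries of a group came from separate animals beyond being separate samples. The p-values therefore set the difference between tissues against the spread between these libraries.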

Additional observations from a re-analysis of the deposited data

Results flagged for a closer look

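In each tissue, the highest or the lowest library was compared with the others by the gap to its nearest neighbour as a share of the whole range (Dixon's 95% critical value). This was done for each named gene with a mean of at least 1 CPM and for the summary measures, and 26 of 261 groups had a library that stood apart. For normally distributed values the limit alone flags about 1 in 20. The CPM were not logged here, and the named genes include those of largest SD in these libraries. A count above 1 in 20 therefore cannot be read as beyond chance. No explanation was tested for any of them.

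Liver 1 stood apart most often. It was above the other livers for Actb (944 CPM against 744 to 799 CPM), the activin-binding protein Fst (19.2 CPM against 1.85 to 5.23 CPM), G6pc (1587 CPM against 49.3 to 589 CPM), the connexin Gja1 (11.1 CPM against 4.65 to 5.55 CPM), the lipid droplet gene Plin4 (10.7 CPM against 1.56 to 2.60 CPM) and Ttr (5966 CPM against 4819 to 5196 CPM). The pancreatic enzymes Ctrb1, at 12.2 CPM, and Pnlip, at 7.41 CPM, had counts in liver 1 and no count in the other livers. Liver 2 was below the others for Serpinc1 (2320.0 CPM against 2875 to 3043 CPM) and the splicing factor Sf1 (109.8 CPM against 142 to 148 CPM). Liver 3 was below the others for the glycogen phosphorylase gene Pygb (4.12 CPM against 6.04 to 7.13 CPM). Liver 5 was above the others for Acta2 (17.5 CPM against 0.792 to 2.48 CPM). Liver 6 was above the others for Mup11 (468 CPM against 1.42 to 126 CPM), whose reads can fall on close copies, and for the cholesterol enzyme Dhcr7 (95.6 CPM against 49.3 to 66.3 CPM).

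Among ovaries, ovary 1 was above the others for C3 (240.2 CPM against 36.1 to 88.8 CPM), Cfd (50.5 CPM against 0.303 to 3.23 CPM), Ovgp1 (41.4 CPM against 1.07 to 3.97 CPM) and Pck1 (7.56 CPM against 0 to 0.389 CPM). Ovary 2 was the highest for Cyp19a1 (77.04 CPM against 22.5 to 33.9 CPM) and the lowest for Sparc (1288 CPM against 1529 to 1614 CPM). Ovary 3 was the highest for Gpx3 (3062 CPM against 903 to 1106 CPM), held 22.4% of its counts in its 100 most abundant genes against 19.9% to 20.3% in the others, and reached 50% of its counts with 965 genes against 1077 to 1095. Ovary 4 was the highest for Sstr1 (79.9 CPM against 4.48 to 21.7 CPM). Ovary 5 was the highest for Apoe (741 CPM against 472 to 511 CPM) and for C1s2 (5.36 CPM against 1.94 to 2.68 CPM), a complement protease gene with a close copy.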

How the results depend on the processing

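The count of 10950 called genes ranged over 10759 to 11055 and the count of 3999 over 8-fold over 3845 to 4125 when each library was left out in turn, and the natural count of 11689 over 11243 to 11696. With DESeq2's Wald test the counts were 11013, 3988 and 11775. Calls depended on the filter: with at least 10 counts in every library 6721 genes were called, 1013 of them over 8-fold, which by construction drops genes near 0 in one tissue, and with no filter beyond 1 count in all 7322 were over 8-fold. The difference in the share of counts, ovary minus liver, was −16.0 to −15.5 percentage points for the 10 most abundant genes and −27.5 to −26.7 for the 100 most abundant with each library left out. The difference in the number of genes that reach 50% of the counts was 930.1 to 963, and in genes detected at equal depth 3232 to 3358.

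Library size alone gave the opposite sign for Chrd (0.090), Esr1 (0.086), Gapdh (0.38), Gusb (1.25), Hprt (1.33), Insr (0.12), Pfkl (1.20), Ppia (1.22), Sf1 (1.38) and Slc2a1 (1.17). By construction it moved the median of all genes by 1.38, and upper quartile scaling moved it by 0.29, with 66.2% of calls higher in ovary. It also turned the balance of calls in the lists of cholesterol uptake, storage and export (10 called, 6 higher in ovary), proteasome subunits (5, all higher in ovary), reference genes (11, of which 9) and lymphocytes (1, higher in ovary). With at least 10 counts in every library, 3 surface epithelium genes were called, of which 2 were higher in liver. Ciart changed sign without livers 5 and 6 (0.032), where the cause was not tested. Of 154 named genes that could be tested, 127 kept their side of the threshold and their direction under each of the 22 settings that gave them a value.

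Whether replicate numbers mark pairs from the same daughter is not known. Deviations of ovary and liver with the same number correlated at −0.10 to 0.14, and in 0 pairs was the own number the best match. This cannot decide it, since the tissues of a daughter need not deviate together and the pairs are few. With the replicate number as a block, 10685 IVF genes were called, 4076 over 8-fold, and 10794 natural genes. Ciart (−0.71), Cyp51 (0.71) and Hsd17b7 (1.11) were not called in that fit. Depth limits genes with few counts: a count of 0 over a tissue allows up to 0.0479 CPM in ovary and 0.0401 CPM in liver, counting error only.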
